A study of Mus musculus with 31 samples.

Results

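Antibody variable (V) segment genes were followed across whole mesothelioma tumours of the mouse that had grown in the pleural, peritoneal or subcutaneous space. The members were all gene symbols starting with Ighv, Igkv or Iglv that reached a level of at least 1 TPM (a transcript's share of the library, corrected for its length) in at least 3 whole tumour libraries. Of 346 V segment symbols listed among 54456 genes, 121 met this rule: 50 heavy chain segments of 183, 68 kappa light chain segments of 160 and all 3 lambda light chain segments. Of the other symbols, 109 were at 0 TPM in every library and 116 were above 0 but short of the rule. The rule uses the measured levels, and most members reached it through the pleural and peritoneal tumours, so a higher level there is in part a product of the choice: 84 of the 121 members were at 1 TPM or more in no subcutaneous tumour.

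A B cell builds each antibody chain by joining 1 V segment to a short J segment on its chromosome, with a D segment between them in the heavy chain, and it transcribes the chosen V segment together with a constant region. Each B cell clone thus expresses mainly 1 heavy and 1 light chain V segment, and plasma cells, the antibody-secreting descendants of B cells, carry far more of this RNA than resting B cells. The pleural and peritoneal cavities of the mouse are known for B-1 cells, a B cell lineage whose natural antibodies often use a small set of V segments.

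The tumours came from AB1-mCherry cells, a BALB/c mouse mesothelioma line from which the brightest mCherry cells had been sorted and grown on before use. Each library is a whole tumour of a different untreated female BALB/c mouse of 12 weeks, taken at day 10 after inoculation: 6 pleural tumours (replicates 1, 2, 3, 4, 5 and 7), 5 peritoneal tumours (replicates 1, 2, 3, 4 and 7) and 5 subcutaneous tumours (replicates 1 to 5). The mice were not treated, the cell line was the same at all sites, and the site was the stated difference between the groups. The series also holds 5 libraries of CD45-negative, mCherry-positive sorted cells per site. The table of those cells has 12461 entries, against 54456 genes for the whole tumours, and lists no V segment. A symbol that is not listed has no value there and cannot be read as 0 TPM. The kappa constant region Igkc is listed, at 0.0951 to 10.9 TPM in pleural, 0.519 to 7.95 TPM in peritoneal and 0 to 0.363 TPM in subcutaneous sorted cells. In a whole tumour, fewer cells of a type and less RNA per cell cannot be told apart.

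The 8 germline segments on which the later sections turn are shown here by the last 150 bases of their transcripts, 5′ to 3′, from the GENCODE M21 annotation of the reference genome GRCm38, read along the transcript (minus strand of the genome for all but Igkv14-126, which lies on the plus strand). The heavy segments lie on chromosome 12 and the kappa segments on chromosome 6. Capitals mark the stretch from the codon of the conserved second cysteine to the end of the segment, which is the germline start of the third complementarity-determining region (CDR3), the most variable loop of the antibody. The first 4 are shown because each heavy segment had its highest levels in the same tumours, in the same order, as a kappa segment. Other pairs that did so are not shown. The last 4 are shown because they encode known B-1 antibodies.
Ighv1-63: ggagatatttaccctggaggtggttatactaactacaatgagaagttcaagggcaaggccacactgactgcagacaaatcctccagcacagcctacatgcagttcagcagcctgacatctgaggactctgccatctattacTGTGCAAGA
Igkv4-53: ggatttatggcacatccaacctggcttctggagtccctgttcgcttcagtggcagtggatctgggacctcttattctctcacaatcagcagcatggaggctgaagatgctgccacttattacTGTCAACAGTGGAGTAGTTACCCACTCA
Ighv1-64: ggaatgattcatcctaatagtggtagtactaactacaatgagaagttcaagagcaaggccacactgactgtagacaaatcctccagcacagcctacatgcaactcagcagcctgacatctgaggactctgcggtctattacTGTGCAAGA
Igkv1-88: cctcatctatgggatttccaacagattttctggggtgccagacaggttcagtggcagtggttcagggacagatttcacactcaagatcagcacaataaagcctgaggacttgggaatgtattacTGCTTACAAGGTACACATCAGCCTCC
Ighv12-3: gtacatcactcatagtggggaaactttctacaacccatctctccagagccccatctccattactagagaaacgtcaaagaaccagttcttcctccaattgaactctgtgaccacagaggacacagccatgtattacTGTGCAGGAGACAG
Igkv4-91: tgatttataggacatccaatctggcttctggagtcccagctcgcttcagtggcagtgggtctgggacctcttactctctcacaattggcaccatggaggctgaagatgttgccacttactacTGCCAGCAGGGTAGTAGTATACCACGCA
Ighv11-2: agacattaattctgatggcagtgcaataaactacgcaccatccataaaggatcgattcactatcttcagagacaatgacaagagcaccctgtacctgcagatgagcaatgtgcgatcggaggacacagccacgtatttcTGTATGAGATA
Igkv14-126: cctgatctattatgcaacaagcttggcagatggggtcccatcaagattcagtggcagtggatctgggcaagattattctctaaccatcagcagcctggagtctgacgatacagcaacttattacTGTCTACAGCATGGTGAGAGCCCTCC

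Reads were 50 bases long, so stretches that V segments share decide how surely a read can be placed. Of all 50-base windows of a member's transcript, a median of 22.8% also occurred in another V segment, 19.3% for heavy and 27.7% for kappa members. No window was shared for 19 members, among them Ighv12-3, Igkv14-126 and Igkv1-88, whereas more than 50% of the windows were shared for 15. The share was 5.18% for Igkv4-91, 33.4% for Ighv1-64, 34.1% for Ighv1-63 (mostly with Ighv1-73) and 39.6% for Igkv4-53 (mostly with Igkv4-60). For Ighv11-2 it was 38.6%, all with Ighv11-1. Levels of such segments are uncertain between neighbours of a family, and so are levels of BALB/c segments that differ from the reference sequence, which is that of another strain. 3 members, Ighv1-14, Ighv1-73 and Ighv3-2, are annotated as pseudogenes.

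All 3 classes of V segment were higher in pleural and peritoneal tumours than in subcutaneous tumours, with no overlap between the sites. Summed over the 346 symbols, V segments had 139.6 TPM in the lowest, a median of 399 TPM and 921 TPM in the highest pleural tumour. Peritoneal replicates 1, 2, 3, 4 and 7 had 341, 2353, 301, 576 and 1553 TPM, against 18.2, 35.9, 28.1, 61.2 and 65.3 TPM in subcutaneous replicates 1 to 5. Every pleural and every peritoneal tumour thus lay above the highest subcutaneous tumour, while the pleural and peritoneal ranges overlapped.

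Kappa segments held the largest part of these sums. They had 79.7 to 662 TPM (median 267) in pleural tumours and 226, 1733, 210.1, 373 and 1063 TPM in peritoneal tumours, against 10.6, 21.5, 17.2, 40.2 and 40.4 TPM in subcutaneous tumours. Heavy segments had 53.3 to 203.5 TPM (median 116.8) in pleural tumours and 97.4, 531, 84.3, 176.9 and 393 TPM in peritoneal tumours, against 6.46, 12.2, 9.97, 19.6 and 21.3 TPM in subcutaneous tumours. The same tumours were high for both chains: pleural replicates 2 and 5 and peritoneal replicates 2 and 7 had the highest heavy and kappa sums of their sites.

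The geometric mean of the V segment total was 9.87-fold higher in pleural than in subcutaneous tumours (a difference of 3.30 on the log2 scale, pooled SD 0.99, n = 6 and 5) and 19.7-fold higher in peritoneal than in subcutaneous tumours (4.30, pooled SD 1.08, n = 5 each). Between pleural and peritoneal tumours the difference was -1.0, within the pooled SD of 1.22. By class, the log2 difference between pleural and subcutaneous tumours was 3.03 for heavy, 3.42 for kappa and 3.41 for lambda segments, and between peritoneal and subcutaneous tumours it was 3.96 for heavy, 4.46 for kappa and 4.25 for lambda segments. No test is given for these sums, because the members were chosen with results of these data known. V segments of the T cell receptor, summed in the same way, differed by -0.32 between pleural and subcutaneous and by -0.08 between peritoneal and subcutaneous tumours, and the sites overlapped.

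**Figure D1:**
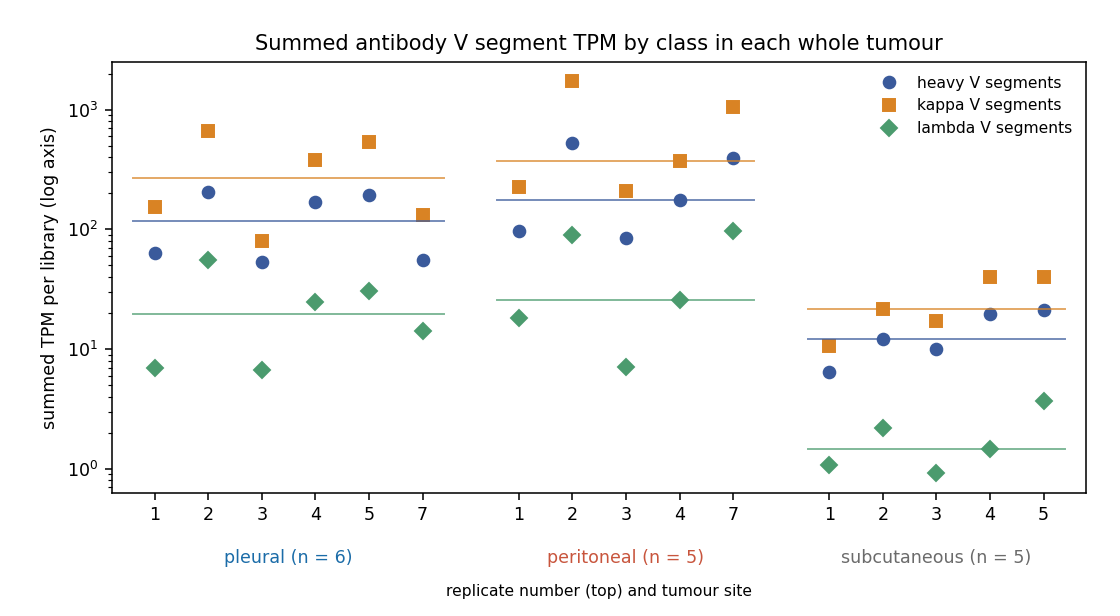
Summed TPM of heavy, kappa and lambda V segments (log axis) in each of the 16 whole tumours, by site and replicate number; horizontal lines are site medians. For each class, every pleural and peritoneal tumour lies above every subcutaneous tumour, and the pleural and peritoneal tumours overlap.

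As a share of the V segment total, kappa segments made up a median of 67.3% (57.1 to 71.9%) in pleural, 68.4% (64.8 to 73.6%) in peritoneal and 61.2% (58.5 to 65.6%) in subcutaneous tumours. The kappa total divided by the heavy total was 2.11 to 3.27 in peritoneal tumours, all above the 1.65 to 2.05 of subcutaneous tumours. In pleural tumours it was 1.50 to 3.25, where replicate 3 was below the subcutaneous range and the other 5 were above it. Lambda segments made up 3.07 to 7.06% of the total in pleural, 2.35 to 6.29% in peritoneal and 2.38 to 6.07% in subcutaneous tumours, so their share did not separate the sites.

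The number of segments at 1 TPM or more was 43 to 117 (median 72.5) in pleural, 62 to 146 (median 75) in peritoneal and 2 to 20 (median 11) in subcutaneous tumours. Of the 121 members, 57 had their highest level in peritoneal replicate 7, 23 in peritoneal replicate 2, 15 in pleural replicate 2, and 0 in any subcutaneous tumour. Of 11 listed genes of lymphoid tissue, some were also highest in peritoneal replicate 7, among them Ccl21a (86.3 TPM) and Ccl19 (26.0 TPM). In the other tumours these 2 genes reached at most 15.1 and 8.21 TPM. Others of the list, such as Cxcl13 and Glycam1, were highest in pleural tumours. Whether peritoneal replicate 7 held lymphoid tissue was not tested. Only 16 members were at 1 TPM or more in all 11 pleural and peritoneal tumours. They were the heavy segments Ighv3-6 and Ighv9-3, the lambda segment Iglv1 and 13 kappa segments, among them Igkv3-7, Igkv6-23, Igkv10-96 and Igkv16-104. In subcutaneous tumours, 3 members (Igkv1-110, Igkv10-96 and Igkv6-15) reached 1 TPM in at least 3 of the 5 libraries, and 11 members were listed at 0 in all 5.

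**Figure D2:**
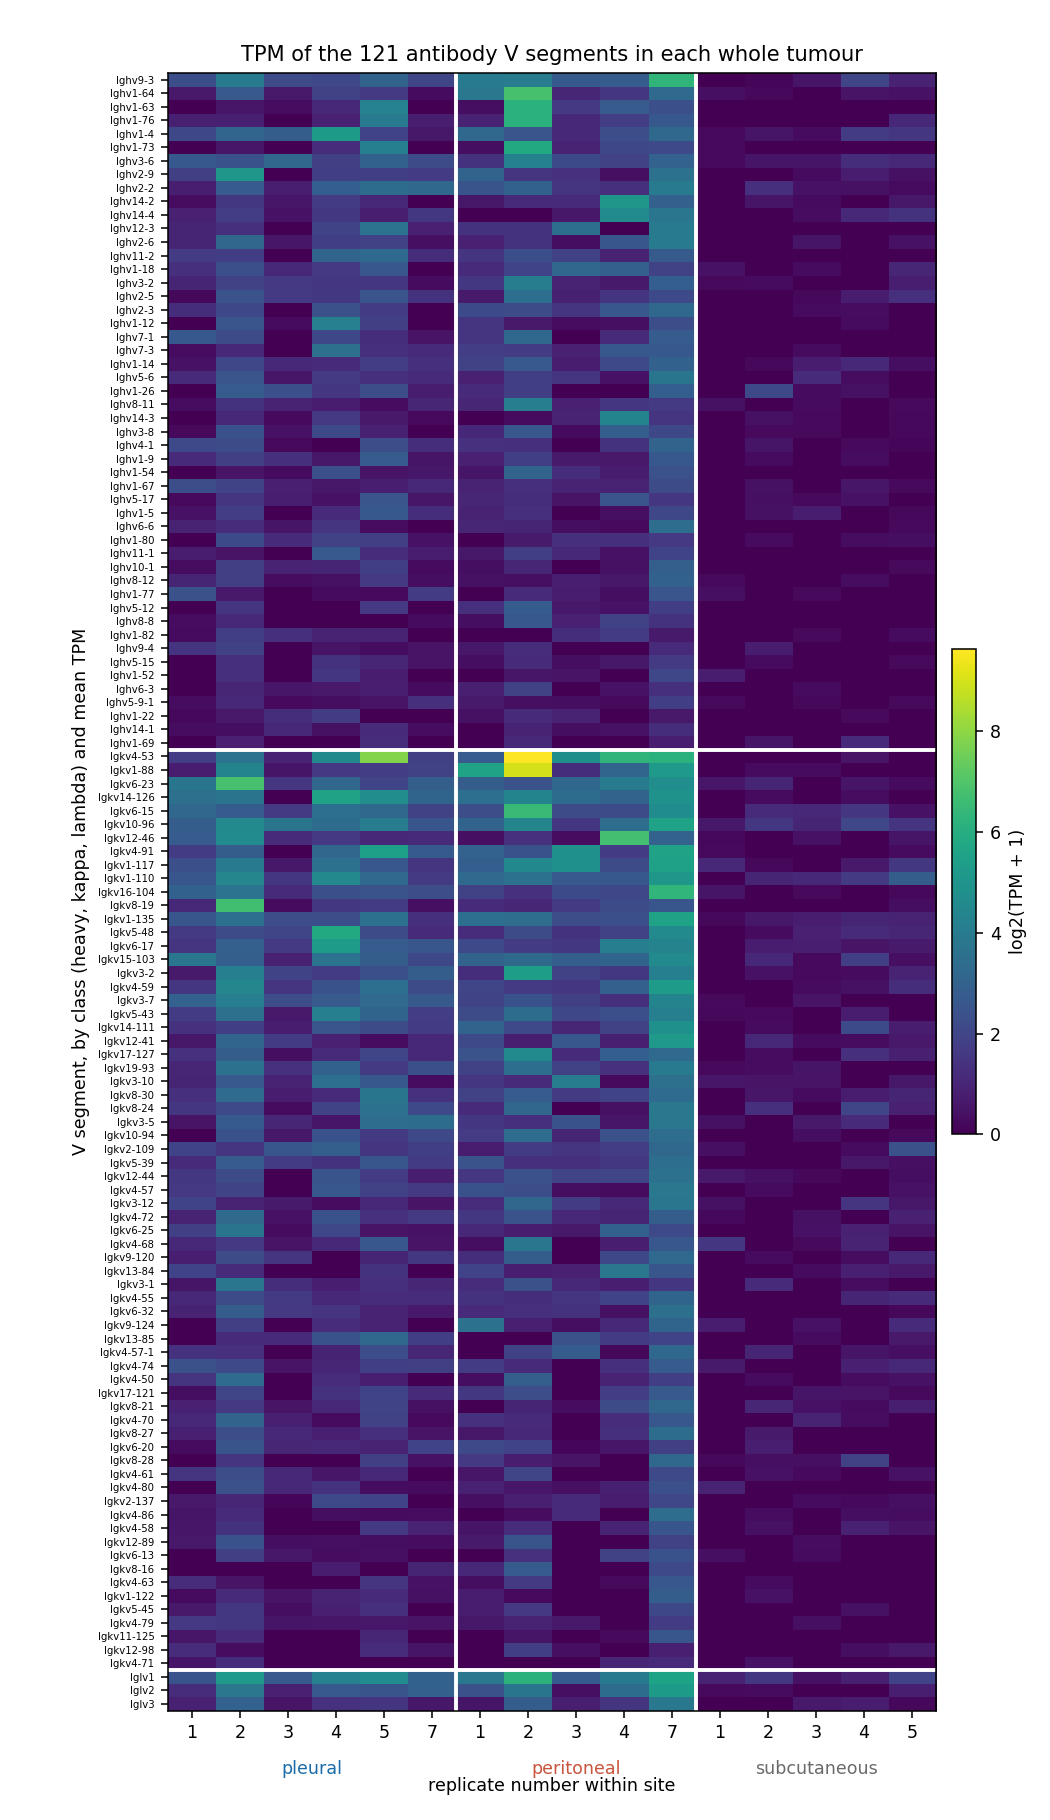
Level of each of the 121 members as log2(TPM + 1) in each whole tumour, with heavy, kappa and lambda segments from top to bottom and pleural, peritoneal and subcutaneous tumours from left to right. The subcutaneous columns are mostly dark, with the highest subcutaneous level of any member at 6.13 TPM, and the brightest cells stand in single libraries, such as Igkv4-53 at 788 TPM in peritoneal replicate 2.

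Segment by segment, pleural tumours were compared with subcutaneous tumours in a limma fit of log2(TPM + 1) over all genes. Of the 121 members, 94 entered the fit (36 heavy, 55 kappa, 3 lambda) because they reached 1 TPM in at least 5 of the 16 libraries. In this comparison 9.4% of all genes tested were called higher and 3.4% lower at an adjusted p below 0.05 (limma, Benjamini-Hochberg), a balance that median-of-ratios scaling of the libraries turned to 647 higher and 914 lower genes. Of the 94 members 20 were called higher and 0 lower: 6 heavy, 13 kappa and 1 lambda segment. The fitted differences of all 94 were above 0, with a median of 1.15 on the log2 scale beside 0.07 over all genes tested, and 60 had an unadjusted p below 0.05. With median-of-ratios scaling 17 were higher and 0 lower. The rule for members used these same libraries, so these counts are a description.

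Igkv3-7 was the segment with the smallest adjusted p. It had 3.83 TPM in the lowest, a median of 6.48 TPM and 16.4 TPM in the highest pleural tumour, against 0.178, 0, 0.426, 0 and 0 TPM in subcutaneous replicates 1 to 5 (limma, log2 fold change 2.87, SE 0.43, adjusted p = 0.00103). Every pleural tumour lay above every subcutaneous tumour. Iglv1, the main lambda segment of the mouse, had 4.72 to 35.3 TPM (median 12.5) in pleural tumours, against 0.891, 1.95, 0.355, 0.813 and 2.79 TPM in subcutaneous tumours, again with no overlap (limma, 2.57, SE 0.60, adjusted p = 0.0145).

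Igkv6-23 spanned 1.84 to 112 TPM in pleural tumours (median 7.29) and 0 to 1.00 TPM in subcutaneous tumours (limma, 2.87, SE 0.71, adjusted p = 0.0189), and pleural replicate 2 alone held 54.8% of its TPM over the 16 libraries. Among heavy segments, Ighv3-6 had 2.57 to 8.16 TPM (median 4.88) in pleural and 0.199 to 1.36 TPM in subcutaneous tumours (limma, 1.81, SE 0.40, adjusted p = 0.0118). Both segments were higher in every pleural tumour than in any subcutaneous tumour.

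Other called kappa segments were at lower levels. Igkv5-39 had 1.29 to 6.03 TPM (median 2.28) in pleural tumours, against 0, 0, 0, 0.527 and 0.321 TPM in subcutaneous tumours (limma, 1.70, SE 0.38, adjusted p = 0.0115). Igkv19-93 had 1.05 to 11.04 TPM (median 3.09) in pleural tumours, against 0.197, 0.234, 0.470, 0 and 0 TPM in subcutaneous tumours (limma, 1.94, SE 0.49, adjusted p = 0.0212). Neither shares a 50-base window with another V segment, and neither had a pleural tumour within the subcutaneous range.

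Igkv15-103 and Igkv5-43 were called as well, with 1 low tumour each. Igkv15-103 had 0.856 to 12.6 TPM (median 6.25) in pleural tumours, against 0, 1.16, 0.194, 2.44 and 0.321 TPM in subcutaneous tumours (limma, 1.97, SE 0.48, adjusted p = 0.0174). Igkv5-43 had 0.560 to 16.6 TPM (median 5.03) in pleural tumours, against 0.158, 0.189, 0, 0.727 and 0 TPM in subcutaneous tumours (limma, 2.23, SE 0.54, adjusted p = 0.0177). The lowest pleural value overlapped the subcutaneous ones in both segments.

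Igkv10-96 stood out by its level in subcutaneous tumours. It had 4.97 to 22.3 TPM (median 11.1) in pleural tumours, against 0.534, 1.91, 1.02, 3.17 and 1.77 TPM in subcutaneous tumours (limma, 2.19, SE 0.55, adjusted p = 0.0206). Igkv16-104, Igkv6-17 and Igkv4-59 were called with adjusted p of 0.0405, 0.0334 and 0.0370 (limma, log2 fold changes 2.29, 2.23 and 2.20). Their calls were lost in 13, 9 and 10 of 25 alternatives, and adjusted p reached 0.0998, 0.0814 and 0.0958.

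The pleural count moved with single tumours and settings. It fell to 9 calls when subcutaneous replicate 2 was left out, to 11 when pleural replicate 2 or subcutaneous replicate 1 was, to 12 when subcutaneous replicate 3 was and to 13 when subcutaneous replicate 4 was. Leaving out pleural replicate 3, the pleural tumour with the lowest V segment total, gave 33. It was 8 with no filter on low values and 45 with a pseudocount of 0.1 in place of 1. The 6 segments called under every alternative were Ighv3-6, Igkv14-126, Igkv15-103, Igkv3-7, Igkv5-39 and Iglv1.

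Peritoneal against subcutaneous tumours gave 42 calls. Here 8.52% of all genes tested were called higher and 3.64% lower, and of the 94 members 42 were called higher and 0 lower (41 and 0 with median-of-ratios scaling, which called 640 genes higher and 873 lower): 13 heavy, 27 kappa and 2 lambda segments. All 94 fitted differences were above 0, with a median of 1.67 beside 0.07 over all genes, and 76 had an unadjusted p below 0.05. Both comparisons share the 5 subcutaneous tumours. The rule for members used the peritoneal libraries too, so these counts and signs are likewise a description.

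Igkv4-53 had the largest fitted difference. Its level was 5.79, 788, 26.9, 76.7 and 69.6 TPM in peritoneal replicates 1, 2, 3, 4 and 7, against 0.419 TPM in subcutaneous replicate 4 and a listed 0 in the other subcutaneous tumours (limma, 5.82, SE 1.22, adjusted p = 0.00851). In pleural tumours it ranged from 0.870 to 230.1 TPM (median 7.14) and was not called against subcutaneous tumours (limma, 3.34, SE 1.16, adjusted p = 0.0689). Both sites lay wholly above the subcutaneous tumours for this segment, and the spread within each site was more than 100-fold.

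Igkv1-88 had 46.2, 516, 1.37, 7.89 and 35.1 TPM in peritoneal tumours, against 0, 0.208, 0.209, 0 and 0 TPM in subcutaneous tumours (limma, 4.72, SE 1.05, adjusted p = 0.0110). Igkv1-117 had 6.27, 21.5, 27.3, 3.73 and 44.9 TPM in peritoneal tumours, against 1.11, 0.166, 0, 0.588 and 1.95 TPM in subcutaneous tumours (limma, 3.28, SE 0.66, adjusted p = 0.00684). The sites did not overlap in either segment, and 81.3% of the TPM of Igkv1-88 over all 16 libraries lay in peritoneal replicate 2.

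Ighv9-3 was the heavy segment with the largest called difference. It had 14.2, 15.4, 5.59, 5.95 and 77.9 TPM in peritoneal tumours, against 0, 0.112, 0.449, 3.03 and 0.929 TPM in subcutaneous tumours (limma, 3.23, SE 0.60, adjusted p = 0.00429). Its pleural values of 3.05 to 14.7 TPM also lay above the subcutaneous ones, by a smaller fitted difference (limma, 1.89, SE 0.57, adjusted p = 0.0415). Igkv1-135 had 10.4, 9.80, 3.90, 4.05 and 45.7 TPM in peritoneal tumours, against 0.146, 0.523, 0.700, 1.00 and 0.869 TPM in subcutaneous tumours (limma, 2.73, SE 0.53, adjusted p = 0.00585). The pleural call of Ighv9-3 was lost in 12 of 25 alternatives, with an adjusted p of up to 0.122, and was lost without subcutaneous replicate 2 (adjusted p = 0.114).

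The 42 peritoneal calls became 24 when subcutaneous replicate 2 was left out, 27 when subcutaneous replicate 3 was, 21 with no filter on low values and 61 with a pseudocount of 0.1 in place of 1. Igkv16-104 was high in 1 tumour, with 2.60, 1.61, 3.49, 3.10 and 80.5 TPM in peritoneal tumours, against 0 to 0.478 TPM in subcutaneous tumours (limma, 2.55, SE 0.72, adjusted p = 0.0330). Its call was lost in 8 of 25 alternatives, with an adjusted p of up to 0.103. The segments called under every alternative numbered 18 and included Igkv4-53, Igkv1-88, Igkv1-117, Igkv14-126, Igkv3-7, Iglv1, Ighv9-3 and Ighv3-6. Without a fit, every peritoneal tumour was above every subcutaneous tumour for 46 of the 94 members (9.07% of all genes tested), and every pleural tumour was above every subcutaneous tumour for 22 (5.83% of all genes tested).

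**Figure D3:**
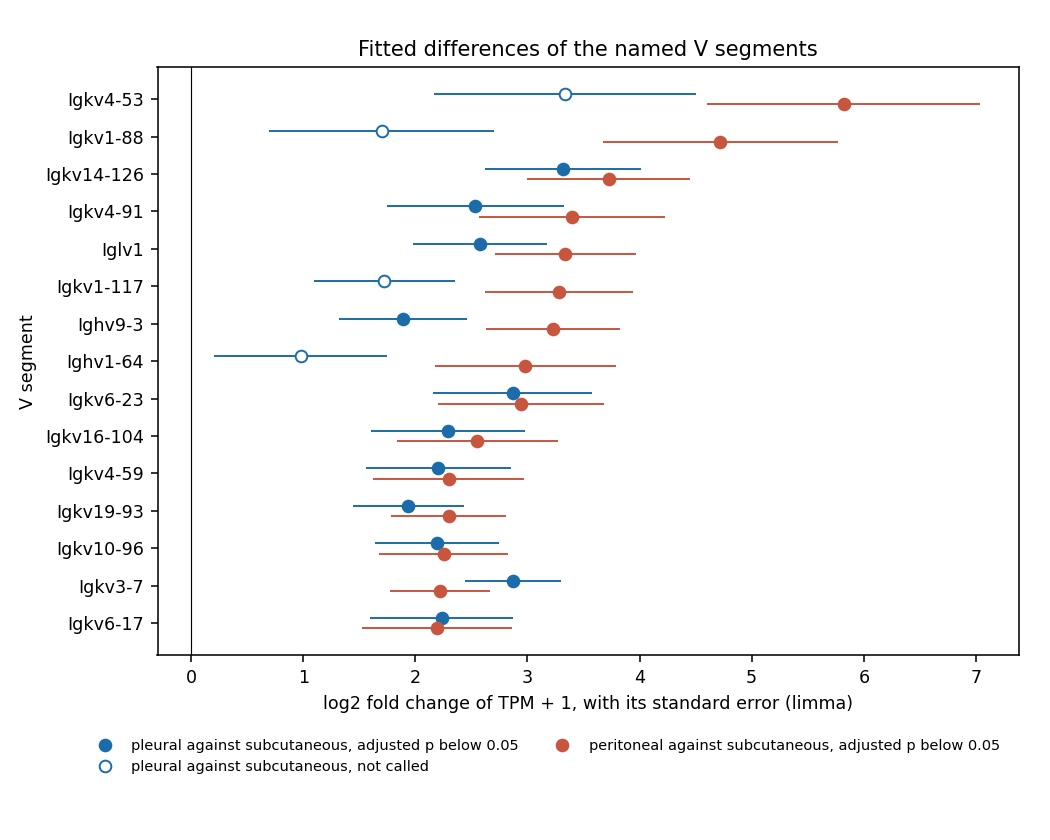
Fitted log2 fold change of TPM + 1 with its standard error (limma) for the 15 segments that were called, did not overlap between sites and had the largest differences in at least 1 of the comparisons with subcutaneous tumours; filled points have an adjusted p below 0.05 and open points do not. Igkv4-53 and Igkv1-88 have the largest peritoneal values (5.82 and 4.72), and Igkv3-7 lies further right for pleural than for peritoneal tumours (2.87 and 2.22).

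No V segment was called between pleural and peritoneal tumours: of 94 members 0 were higher and 0 lower at an adjusted p below 0.05 (limma), with 13 at an unadjusted p below 0.05. Of all genes tested, 0.0266% were called higher, 0.0266% lower and so 0.0531% in either direction. The median fitted difference of the members was -0.33, beside 0.00 over all genes, and 21 of 94 were above 0. Igkv1-88 had the most negative value (limma, -3.02, adjusted p = 0.299), followed by Igkv4-53 (limma, -2.49, adjusted p = 0.447). Igkv3-7 had the most positive value (limma, 0.66, adjusted p = 0.589). In 0 of 94 members did every pleural tumour lie above every peritoneal tumour (0.465% of all genes tested). The reverse, every peritoneal tumour above every pleural tumour, was not counted, although most fitted differences pointed that way. These p-values do not show that the sites were alike, since the spread within each site was wide.

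A different segment led in almost every mouse, and the leading segment took a large share in only a few tumours. Over the 11 pleural and peritoneal tumours, 10 different heavy and 10 different kappa segments held the lead. The leading kappa segment took 42.9% of the kappa TPM in pleural replicate 5 and 45.5% in peritoneal replicate 2, and both times it was Igkv4-53. In peritoneal replicate 2, Igkv4-53 and Igkv1-88 together with the next 3 segments made up 84.1% of the kappa TPM.

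The other pleural and peritoneal tumours were led by other kappa segments. Igkv12-46 held 28.8% (107 TPM) in peritoneal replicate 4 and was at 0.251 to 7.09 TPM in the other peritoneal tumours, Igkv1-88 held 20.5% (46.2 TPM) in peritoneal replicate 1, and Igkv6-23 held 16.9% (112 TPM) in pleural replicate 2, closely followed there by Igkv8-19 at 104 TPM. Igkv5-48 led pleural replicate 4 at 55.8 TPM (14.7%), and Igkv16-104 led peritoneal replicate 7 at 80.5 TPM with a share of only 7.58%. Igkv15-103, Igkv10-96 and Igkv3-5 led pleural replicates 1, 3 and 7 at 9.56 to 12.6 TPM. The lead was thus steep in a few tumours and shallow in others at both sites.

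The effective number of kappa segments, which is 1 over the sum of the squared shares and equals the number of segments when all are equal, measures this. It was 5.05 in pleural replicate 5, the lowest of 6 pleural tumours (median 18.7, highest 33.2). In peritoneal replicates 1, 2, 3, 4 and 7 it was 16.4, 3.34, 15.04, 7.45 and 34.3, against 13.4, 23.7, 27.3, 23.0 and 19.8 in subcutaneous replicates 1 to 5. The 3 lowest and the 3 highest values all belonged to pleural or peritoneal tumours. In subcutaneous tumours the leading kappa segment was at 1.18 to 6.13 TPM, so shares there rest on low levels.

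No heavy segment took as large a share as Igkv4-53 did. The leading heavy segment held 8.41 to 21.6% (median 15.3%) in pleural, 12.1 to 21.2% (median 18.9%) in peritoneal and 8.73 to 27.2% (median 13.9%) in subcutaneous tumours. The pleural leaders were Ighv7-1, Ighv2-9, Ighv3-6, Ighv1-4, Ighv1-63 and Ighv2-2, with Ighv1-4 the highest at 36.7 TPM in pleural replicate 4. Ighv9-3 led peritoneal replicates 1 and 7 (14.2 and 77.9 TPM), Ighv1-64 led replicate 2 (112 TPM), Ighv12-3 replicate 3 (10.2 TPM) and Ighv14-2 replicate 4 (33.5 TPM). The highest share of all, 27.2%, was that of Ighv1-26 in subcutaneous replicate 2, at only 3.33 TPM.

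Over all members, a median of 32.7% of a segment's TPM lay in its highest library, and for 22 members it was 50% or more. Of these 22, 8 peaked in peritoneal replicate 2, 6 in peritoneal replicate 7, 3 each in pleural replicate 2 and peritoneal replicate 4, and 2 in pleural replicate 4. Igkv8-19 was the extreme, with 84.5% of its TPM in pleural replicate 2. Peritoneal replicates 2 and 7, the tumours with the highest totals, differed in their kappa segments: replicate 7 had 80 at 1 TPM or more with a lead of 7.58%, and replicate 2 had 56 with a lead of 45.5%.

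**Figure D4:**
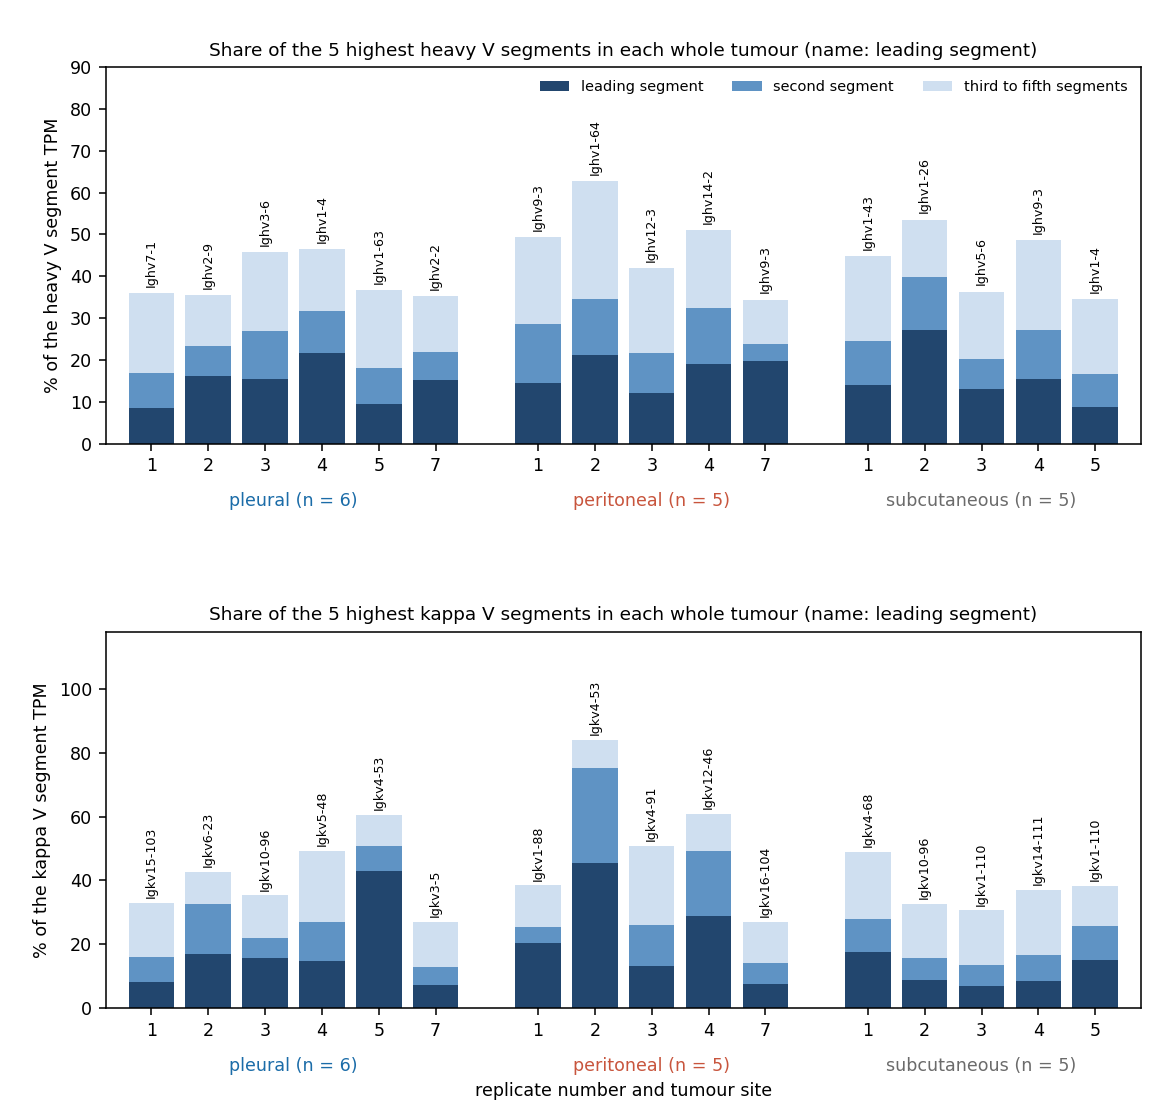
Share of the class TPM held by the leading, the second and the next 3 V segments in each whole tumour, for heavy segments (upper panel) and kappa segments (lower panel); the name above a bar is the leading segment. Igkv4-53 takes 42.9% in pleural replicate 5 and 45.5% in peritoneal replicate 2, while the kappa bars of pleural replicate 7 and peritoneal replicate 7 start at 7.27% and 7.58%.

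Some heavy and kappa segments peaked in the same tumours. For each of the 3400 pairs of a heavy and a kappa member, the libraries were ranked by each segment, and the number of highest libraries that came in the same order was counted. Ighv1-63 and Igkv4-53 shared the order of their 8 highest libraries, the longest run of all pairs. In all, 5 pairs reached 5 or more and 12 reached 4 or more. Ighv5-15 with Igkv5-43 had a run of 6, and Ighv1-64 with Igkv1-88, described below, had a run of 4. The order of Ighv1-63 and Igkv4-53 was peritoneal replicate 2, pleural replicate 5, peritoneal replicates 4, 7 and 3, pleural replicates 4 and 2, and peritoneal replicate 1. This is not the order of the V segment total, in which peritoneal replicate 2 was followed by peritoneal replicate 7 and pleural replicate 2. The count is a description, made after the levels were seen, and the libraries share their B cell content between segments.

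Ighv1-63 had 69.6 TPM in peritoneal replicate 2 and 18.1 TPM in pleural replicate 5, the tumours in which Igkv4-53 had 788 and 230.1 TPM. It then had 5.86, 4.08 and 2.06 TPM in peritoneal replicates 4, 7 and 3, 1.07 TPM in pleural replicate 4, and was listed at 0 in every subcutaneous tumour and in pleural replicates 1 and 7. As a percentage of Igkv4-53, Ighv1-63 was 8.83% in peritoneal replicate 2, 7.85% in pleural replicate 5 and 7.65, 7.63 and 5.86% in peritoneal replicates 3, 4 and 7. It was 4.15 to 4.81% in the next 3 tumours of the shared order and 28.5% in pleural replicate 3, where both segments were below 1 TPM. Ighv1-73, which shares read stretches with Ighv1-63, and Ighv1-76 were also highest in peritoneal replicate 2 (57.3 and 70.6 TPM) and pleural replicate 5 (16.7 and 14.7 TPM). The site differences of Ighv1-63 were not called (limma, pleural adjusted p = 0.442, peritoneal adjusted p = 0.0655).

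Igkv1-88 and Ighv1-64 shared their 4 highest libraries in order: peritoneal replicates 2, 1 and 7 and pleural replicate 2. Ighv1-64 had 112, 13.6, 8.84 and 5.40 TPM there, which was 21.8, 29.4, 25.2 and 28.2% of Igkv1-88. In the other pleural and peritoneal tumours, where Igkv1-88 was at most 7.89 TPM, this percentage ranged from 8.26 to 137%. Igkv1-88 led the kappa segments of peritoneal replicate 1, where Ighv1-64 was second among heavy segments. Ighv1-64 was called in peritoneal tumours (limma, log2 fold change 2.98, SE 0.81, adjusted p = 0.0276), a call lost in 7 of 25 alternatives, with an adjusted p of up to 0.0699.

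B-1 antibodies against phosphatidylcholine, a membrane lipid, pair Ighv11-2 with Igkv14-126, or Ighv12-3 with Igkv4-91, in mice. These 4 segments were at or near 0 in subcutaneous tumours. Low subcutaneous levels were not particular to them. Of the 121 members, 84 reached 1 TPM in no subcutaneous tumour and 11 were at 0 in every subcutaneous tumour. Igkv14-126 had a median of 11.5 TPM (0 to 46.0) in pleural tumours and 10.4, 19.3, 9.56, 7.35 and 28.9 TPM in peritoneal tumours, against 0, 0.214, 0, 0.245 and 0 TPM in subcutaneous tumours. It was called in both comparisons (limma, pleural 3.32, SE 0.69, adjusted p = 0.00897; peritoneal 3.72, SE 0.72, adjusted p = 0.00567) and under every alternative, and it shares no 50-base window with another V segment.

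Its heavy partner Ighv11-2 had a median of 2.34 TPM (0 to 8.84) in pleural tumours and 1.79, 3.93, 2.75, 0.893 and 5.65 TPM in peritoneal tumours, and was listed at 0 in all 5 subcutaneous tumours. Ighv11-2 was called in both comparisons (limma, pleural adjusted p = 0.0216, peritoneal adjusted p = 0.0252). The pleural call was lost in 4 of 25 alternatives, with an adjusted p of up to 0.0691, among them no filter on low values and subcutaneous replicate 2 left out. The peritoneal call was lost in 6, with an adjusted p of up to 0.0917, among them no filter and subcutaneous replicate 2, peritoneal replicate 2 or peritoneal replicate 7 left out. Pleural replicate 3 was at 0 for all 4 segments, unlike every other pleural tumour.

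Igkv4-91 had a median of 5.86 TPM (0 to 41.9) in pleural tumours and 7.19, 4.31, 27.5, 2.21 and 45.8 TPM in peritoneal tumours, against 0.179, 0, 0, 0 and 0.216 TPM in subcutaneous tumours. The peritoneal difference was called (limma, 3.40, SE 0.83, adjusted p = 0.0176) and lost in 1 of 25 alternatives, with an adjusted p of 0.0579. The pleural one had an adjusted p of 0.0469 (limma, 2.53, SE 0.79) that was above 0.05 in 15 of 25 alternatives, up to 0.109 with no filter on low values.

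Ighv12-3 had a median of 1.22 TPM (0 to 11.6) in pleural tumours and 1.65, 1.64, 10.2, 0 and 15.2 TPM in peritoneal tumours, against a listed 0 in all subcutaneous tumours, and was not called (limma, pleural adjusted p = 0.145, peritoneal adjusted p = 0.0625). Ighv12-3 and Igkv4-91 shared the order of their 5 highest libraries, beginning with peritoneal replicate 7, pleural replicate 5 and peritoneal replicate 3. In those 3 tumours Ighv12-3 was at 33.1, 27.6 and 36.9% of Igkv4-91. In peritoneal replicate 3 this pair led both classes, with 12.1% of the heavy and 13.1% of the kappa TPM. The other known pair did not share the exact order: Ighv11-2 was highest in pleural replicate 5 (8.84 TPM) and Igkv14-126 in pleural replicate 4 (46.0 TPM). The highest 4 tumours were still the same for both segments, namely pleural replicates 4 and 5 and peritoneal replicates 2 and 7. Ighv11-2 was at 12.1 to 35.2% of Igkv14-126 in all pleural and peritoneal tumours but pleural replicate 3, where both were at 0. In the same tumours Ighv12-3 was at 0 to 44.6% of Igkv4-91. Counted with Ighv11-1 and all Igkv14 segments, 6 segments of this group were tested, of which 3 were called higher in pleural and 4 in peritoneal tumours and 0 lower. Ighv11-1 was not called, and Igkv14-111 was called in peritoneal tumours (limma, 1.95, adjusted p = 0.0437) and not in pleural tumours (limma, 1.09, adjusted p = 0.206). The peritoneal call of Igkv14-111 was lost in 14 of 25 alternatives, with an adjusted p of up to 0.135. Unlike the 4 paired segments, Igkv14-111 led the kappa segments of 1 subcutaneous tumour, replicate 4, at 3.46 TPM.

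Ighv7-1, the heavy segment of the T15 antibody against phosphorylcholine, had a median of 2.33 TPM (0 to 5.35) in pleural tumours and 1.81, 8.58, 0, 1.25 and 5.97 TPM in peritoneal tumours, against a listed 0 in every subcutaneous tumour. It was not called (limma, pleural adjusted p = 0.0836, peritoneal adjusted p = 0.0549). Its kappa partner Igkv7-33 reached at most 2.27 TPM and 1 TPM in only 2 libraries, too few to be a member. Of 7 genes known from B-1 cells, 1 was called higher and 0 lower in pleural tumours, where 9.4% of all genes tested were called higher. In peritoneal tumours 0 were called in either direction (limma), and 2 had an unadjusted p below 0.05 at each site. These were Plscr1, higher at both sites, with Cd9, lower in pleural tumours (limma, -0.31), and Spn, lower in peritoneal tumours (limma, -0.16). The called gene was Plscr1, at 41.8 to 59.4 TPM in pleural and 37.0 to 47.7 TPM in subcutaneous tumours (limma, 0.29, adjusted p = 0.0359). The transcription factor Bhlhe41 was not called (limma, pleural adjusted p = 0.347, peritoneal adjusted p = 0.650).

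**Figure D5:**
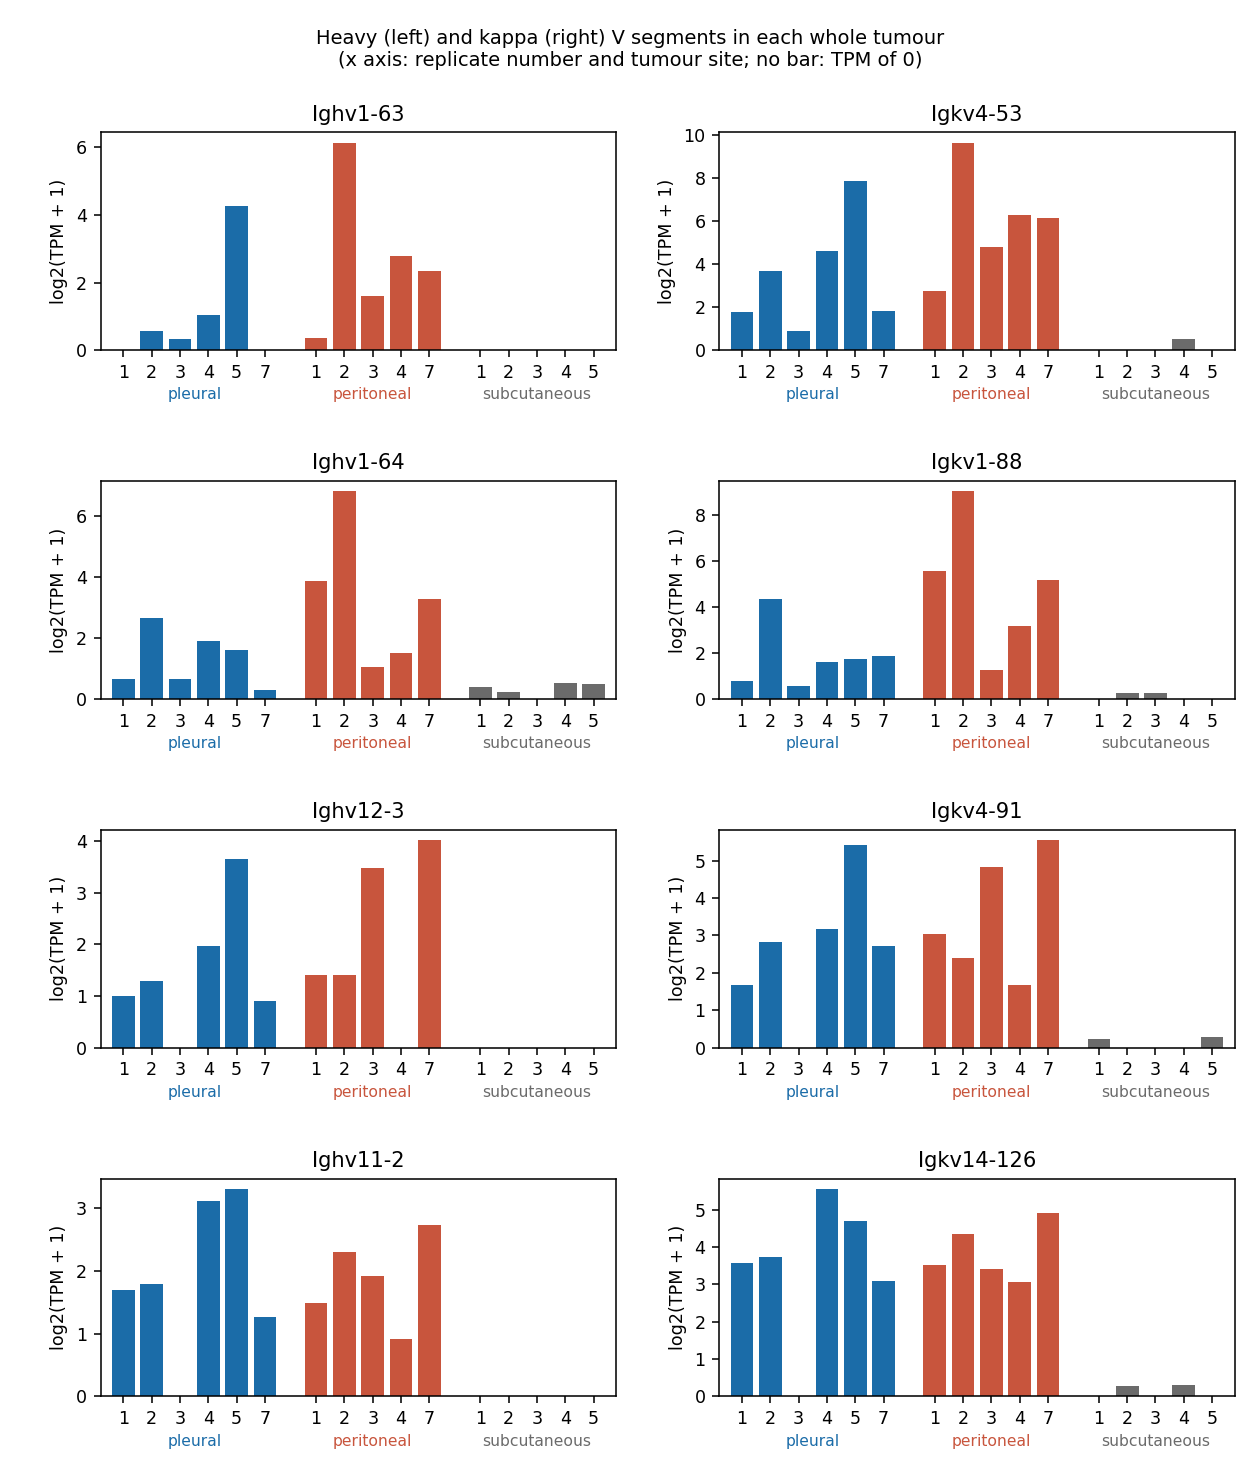
Level as log2(TPM + 1) of 4 heavy segments (left) and the kappa segment that shared the order of its highest tumours or is its known partner (right) in each whole tumour; an absent bar is a TPM of 0, and each panel has its own scale. Ighv1-63 and Igkv4-53 share the order of their 8 highest tumours, with peritoneal replicate 2 and pleural replicate 5 highest, and Ighv12-3 and Ighv11-2 have no bar in any subcutaneous tumour.

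Grouped by family, called segments were scattered and no family held all of them. Of the 12 Igkv4 members tested, 2 were called higher in pleural and 4 in peritoneal tumours, of the 6 Igkv6 members 2 and 4, of the 6 Igkv3 members 1 and 3, and of the 13 Ighv1 members, the largest heavy family, 2 and 3. All 4 Igkv1 members tested were called in peritoneal tumours and 1 in pleural tumours. The Ighv1 family held a median of 44.2% of the heavy TPM in pleural, 40.6% in peritoneal and 53.9% in subcutaneous tumours. The Ighv14 family reached 43.6% in peritoneal replicate 4, where Ighv14-2 and Ighv14-4 (33.5 and 24.02 TPM) were the 2 highest heavy segments.

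The 3 lambda segments kept 1 order in most tumours. Iglv1 led in all 11 pleural and peritoneal tumours and in 4 of 5 subcutaneous tumours. Iglv2 had a median of 5.03 TPM (0.847 to 12.9) in pleural tumours and 4.25, 12.3, 0.331, 9.57 and 36.7 TPM in peritoneal tumours, against 0.191, 0.228, 0, 0 and 0.758 TPM in subcutaneous tumours. It was called in peritoneal tumours (limma, 2.76, SE 0.70, adjusted p = 0.0212) and not in pleural tumours (limma, 2.06, SE 0.67, adjusted p = 0.0546). Iglv3 was called in neither (limma, pleural adjusted p = 0.231, peritoneal adjusted p = 0.0783).

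The constant regions, to which V segments are joined, were called in the same direction. Of 11 tested, 4 were called higher and 0 lower in pleural tumours, and 7 higher and 0 lower in peritoneal tumours. Igkc, the kappa constant region, had 111 to 764 TPM (median 331) in pleural tumours and 227 to 1964 TPM (median 533) in peritoneal tumours, against 14.8 to 64.5 TPM (median 44.3) in subcutaneous tumours. The kappa V total was 0.718 to 0.886 of Igkc in pleural, 0.700 to 0.925 in peritoneal and 0.484 to 0.794 in subcutaneous tumours. All 14 J segment symbols were at 0 TPM throughout. Since a rearranged V segment is joined to a J segment, these values cannot be read as an absence of J sequence.

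The heavy constant region Ighg1 (IgG1) was concentrated in the tumours led by Igkv4-53. It had 381 TPM in peritoneal replicate 2 and 79.2 TPM in pleural replicate 5, and 0.558 to 31.5 TPM in the other pleural and peritoneal tumours, against 0.311 to 0.747 TPM in subcutaneous tumours. Ighg1 was called in peritoneal tumours (limma, 3.74, SE 1.17, adjusted p = 0.0482), a call lost in 15 of 25 alternatives with an adjusted p of up to 0.112, and not in pleural tumours (limma, 2.20, SE 1.12, adjusted p = 0.195). Ighm (IgM) was at 31.9 to 243 TPM in pleural, 75.6 to 522 TPM in peritoneal and 27.4 to 60.9 TPM in subcutaneous tumours. Igha (IgA) was called in both comparisons (limma, pleural 1.69, adjusted p = 0.00986, peritoneal 1.79, adjusted p = 0.00863) and under every alternative.

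Jchain, which joins IgM and IgA chains into polymers, and Mzb1, a chaperone of secreting B cells, were highest in peritoneal replicate 2 (166 and 39.5 TPM), the tumour with the highest V segment total. Jchain was called in both comparisons (limma, pleural 2.68, adjusted p = 0.00903, peritoneal 3.70, adjusted p = 0.00151) and under every alternative. Mzb1 was called in peritoneal tumours (limma, adjusted p = 0.0334, lost in 9 of 25 alternatives) and not in pleural tumours (limma, adjusted p = 0.161). Of 10 B cell genes tested, 0 were called in pleural tumours (limma, 3 at an unadjusted p below 0.05) and 2 were called higher in peritoneal tumours. Of 11 plasma cell genes, 2 were called higher in pleural tumours (Jchain and Xbp1) and 3 in peritoneal tumours (Jchain, Mzb1 and Pou2af1). Sdc1, a surface marker of plasma cells and epithelia, was lower in both. Of all genes tested, 9.4% were called higher in pleural and 8.52% in peritoneal tumours. The pleural difference of Xbp1 was small (limma, 0.28, adjusted p = 0.0306). Xbp1 was at 83.9 to 99.1 TPM and Txndc5 at 125 to 139 TPM in subcutaneous tumours, so this list is not a measure of plasma cells alone. Summed over the 13 listed B cell genes, levels were 27.1 to 107 TPM in pleural, 30.03 to 176.9 TPM in peritoneal and 25.3 to 34.3 TPM in subcutaneous tumours. Cd79a, 1 of these genes, was at 8.70 to 12.9 TPM in the CD45-negative sorted cells, whose table was scaled apart. It was at 7.18 to 8.68 TPM in subcutaneous whole tumours. Ebf1 was at 8.03 to 10.3 TPM there and at 7.02 to 11.9 TPM in pleural and peritoneal tumours. The subcutaneous sums in particular are thus not a measure of B cells alone. The part of B cells and plasma cells in the V segment differences was not tested. Of 12 T cell genes tested, 0 were called in either comparison (limma, 1 at an unadjusted p below 0.05 in each).

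The membership threshold had no gap around it. 14 segments reached 1 TPM in exactly 3 libraries and 23 in exactly 2. Among the segments just inside, Igkv4-86 reached 9.75 TPM and Ighv8-12 reached 6.86 TPM, both in peritoneal replicate 7. Just outside were Ighv1-53, at 23.6 TPM in peritoneal replicate 2, and Ighv1-55, at 8.72 TPM in pleural replicate 2.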

How the data were processed

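RNA of 16 whole tumours was sequenced as single-end reads of 50 bases, per the labels' protocols, and the submitters' processing notes name kallisto and the genome build GRCm39. The deposited table gives TPM per gene symbol; its annotation release is not given in the sources used here, and since TPM keeps no read numbers the depth is unknown. The authors' table of the 15 sorted libraries, also in TPM, was scaled apart and was only searched for V segments and markers. Members and gene lists were chosen with earlier results of these data known; 1 gene of the B cell list is not reported here. Genes at 1 TPM or more in at least 5 of 16 libraries (15054) were fitted with limma 3.58.1 (R 4.3.3; trend, log2(TPM + 1), 3 sites in 1 fit) and adjusted by Benjamini-Hochberg over all of them, with a call at an adjusted p below 0.05. Fold changes on this scale understate those of low genes. The fit was tested on simulated data.

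Named V segments were, for each comparison, the up to 8 called ones with the largest difference and no overlap, the leading segments of each tumour, the 10 highest mean levels, the listed B-1 and T15 segments and those next to the threshold; others, such as Igkv5-39, Igkv5-43, Igkv1-135, Ighv14-4 and Igkv8-19, were named after their values were seen. Groups came from the labels, with 1 mouse per library. Alternatives were a pseudocount of 0.1, a filter of 3 libraries or none, median-of-ratios scaling, rescaling without antibody genes, only the 2 sites compared, robust empirical Bayes, the replicate number as a block, each library left out and, chosen after seeing the data, the library number of the column names as a block. Shared windows and printed sequences come from GENCODE M21 transcripts of GRCm38, which listed all 346 symbols; no coordinates are given because the builds differ.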

Additional observations from a re-analysis of the deposited data

Results flagged for a closer look

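In all, 219 groups of 5 or 6 tumours were looked at, over the V segments and genes named and the measures of totals and shares. Of these, 19 had 1 tumour whose gap to the nearest other was beyond Dixon's 95% critical value. Chance flags about 1 in 20 groups of values that were not selected. Many segments here were named because they led a single tumour or had a high maximum. The 19 flags can therefore not be read against that rate. None of these values was weighed further.

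In pleural tumours the leading kappa share was 42.9% in replicate 5, against at most 16.9% in the others, and Ighv1-63 stood apart in the same tumour at 18.1 TPM. Replicate 2 stood apart for Igkv1-88 (19.2 TPM), Ighv2-9 (33.0 TPM), Iglv3 (7.16 TPM) and Ighv1-55 (8.72 TPM), and replicate 4 for Igkv5-48 (55.8 TPM).

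In peritoneal tumours replicate 7 stood apart for Igkv16-104 (80.5 TPM, against at most 3.49 TPM in the others), Igkv15-103 (23.3 TPM), Igkv5-48 (23.6 TPM) and Ighv8-12 (6.86 TPM), and replicate 2 for Ighv1-53 (23.6 TPM).

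In subcutaneous tumours the values were low throughout. Replicate 1 stood apart for Ighv1-43 (0.900 TPM) and Ighv1-53 (0.582 TPM), replicate 2 for Ighv1-26 (3.33 TPM), replicate 3 for Ighv5-6 (1.30 TPM), replicate 4 for Igkv4-53 (0.419 TPM, the others listed at 0), and replicate 5 for Ighv1-55 (0.928 TPM). Sdc1 was lowest in replicate 1, at 73.9 TPM.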

How the results depend on the processing

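The pleural count of 20 V segments called against subcutaneous tumours was 45 with a pseudocount of 0.1, 8 with no filter on low values and 9 to 33 with 1 library left out. The peritoneal count of 42 was 61 with a pseudocount of 0.1, 21 with no filter and 24 to 49 with 1 library left out. With the mouse number as a replicate block, 12 pleural and 26 peritoneal segments were called. The table's column names number 3 peritoneal tumours otherwise; a block by that library number, added after seeing the data, gave 10 and 21. Under both numberings same-numbered tumours had deviations correlated by -0.377 to 0.256 and 7 of 28 comparisons gave the highest correlation with the own number, so neither was taken to pair the tumours. The cause of these changes was not tested. No call or ratio changed direction under any alternative run, and 0 V segments were called between pleural and peritoneal tumours under each of them. Median-of-ratios scaling left 17 pleural and 41 peritoneal V segments called higher and 0 lower, although it called 647 genes higher and 914 lower in pleural tumours (1415 and 512 as deposited) and 640 and 873 in peritoneal tumours (1283 and 548 as deposited).

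With shares counted by family in place of single segments, the median lead of heavy segments was 44.2% in pleural, 43.6% in peritoneal and 53.9% in subcutaneous tumours, and that of kappa segments in subcutaneous tumours was 18.4%. Of 54 gene results called among the genes named, 24 were called under every alternative. Levels near 1 TPM, shared read stretches and unknown depth limit what can be said of single subcutaneous segments.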
